A study of Saccharomyces cerevisiae with 18 samples.

Results

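The 10 genes described here are yeast genes of septum turnover and daughter-cell identity: the chitin synthase gene CHS1, the chitinase gene CTS1, the daughter-specific expression genes DSE1, DSE2 and DSE4, the wall protein genes EGT2, SCW11 and PRY3, and the regulators ASH1 and AMN1. They were chosen by name after their log2 differences between Δapn1/pMAG and wild type were known. Each was measured by 1 probe set, so they are 10 of the 6504 probe sets with a single gene name, and none was removed by a filter. A budding yeast cell closes its division site with a primary septum of chitin, covered on both sides by glucan and wall protein. After mitotic exit the daughter makes chitinase and glucanases that dissolve the septum from its side.

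The arrays, Affymetrix Yeast Genome S98 with 18 in all, covered 6 strains with 3 cultures each, in haploid MATa cells of the BGY111 background (his3, leu2, ura3-52, trp1 and can1 alleles, GAL+) grown to mid-log phase in galactose medium without uracil. Wild type carried the empty vector pYES. In WT/pMAG the vector held MAG, which encodes the 3-methyladenine DNA glycosylase that starts base excision repair. Δapn1 carried the apn1-1::HIS3 allele of the major AP endonuclease gene with empty pYES, and Δapn1/pMAG the same allele with the MAG vector. Δapn1/pAPN1 held pYepAPN1-2A and empty pYES, and Δapn1/pMAG/pAPN1 held both expression plasmids. The medium selected for the pYES plasmid; selection for pYepAPN1-2A in it was not stated. All values are log2 signals after RMA, so a difference of 1 is a change of 2-fold, and levels of different genes were not compared because they come from different probes. The 3 cultures of a strain were described as biological replicates. Bulk RNA cannot tell fewer separating cells from less messenger in each cell.

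The strain labels and the arrays were checked first. MAG1 read between 0.89 and 1.41 on the 9 arrays without pMAG. On the arrays with pMAG it read 6.14, 1.48 and 6.91 in WT/pMAG, 7.17, 2.88 and 1.82 in Δapn1/pMAG, and 3.80, 2.83 and 1.82 in Δapn1/pMAG/pAPN1. The APN1 probe set averaged 1.43 ± 0.40 (SD, n = 3) in wild type and 2.98 ± 0.17 on the arrays labelled Δapn1, which goes against a loss of signal in the disrupted strain; where its probes lie relative to the HIS3 insertion was not given, so it does not check that label, and Δapn1 below means the arrays labelled so. The source names give apn1 for all 3 of these arrays, while the descriptions of replicates 2 and 3 name apn2 and apn3, which was not resolved. APN1 read 4.57 on replicate 1 of Δapn1/pMAG/pAPN1 and 7.26 to 7.96 on the other arrays with pAPN1. In Δapn1/pMAG, without pAPN1, it read 3.97, 3.64 and 4.38. The 3′ and 5′ signals of ACT1 differed by -7.78 on replicate 1 of Δapn1/pMAG and by -1.82 to -0.65 elsewhere (5′ minus 3′). A split of the arrays by their mean signal over 69 small RNA probe sets, seen in the signals and not named in the labels, put replicates 2 and 3 of wild type, 1 and 3 of WT/pMAG, 2 and 3 of Δapn1 and 1 of Δapn1/pMAG on the high side (2.07 to 2.58, against 1.73 to 1.90). All arrays with pAPN1 lay on the low side. Of the a-cell markers, MFA1, MFA2, STE2, BAR1 and AGA2 had medians from 3.65 to 9.40 and STE6 1.58. Of the alpha-cell markers, STE3, MF(ALPHA)1 and MF(ALPHA)2 had medians from 1.60 to 1.77, near the array medians of 1.63 to 1.72, and SAG1 4.53.

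Because Δapn1/pMAG against wild type chose the genes, each value that rests on either strain is given as a description with no test. Tests came from the other 4 strains: a moderated F test over WT/pMAG, Δapn1, Δapn1/pAPN1 and Δapn1/pMAG/pAPN1, the difference made when pMAG joined pAPN1, and the difference between Δapn1/pAPN1 and Δapn1. None of the 10 genes passed an adjusted p of 0.05 in any of the 3 tests, where limma called 0.308% of all probe sets in the F test, 0% in the second in either direction, and 0.0154% higher and 0% lower in the third. At an unadjusted p under 0.05 the F test held CHS1, PRY3 and DSE2, 3 of 10 genes, against 11.1% of all probe sets.

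**Figure D1:**
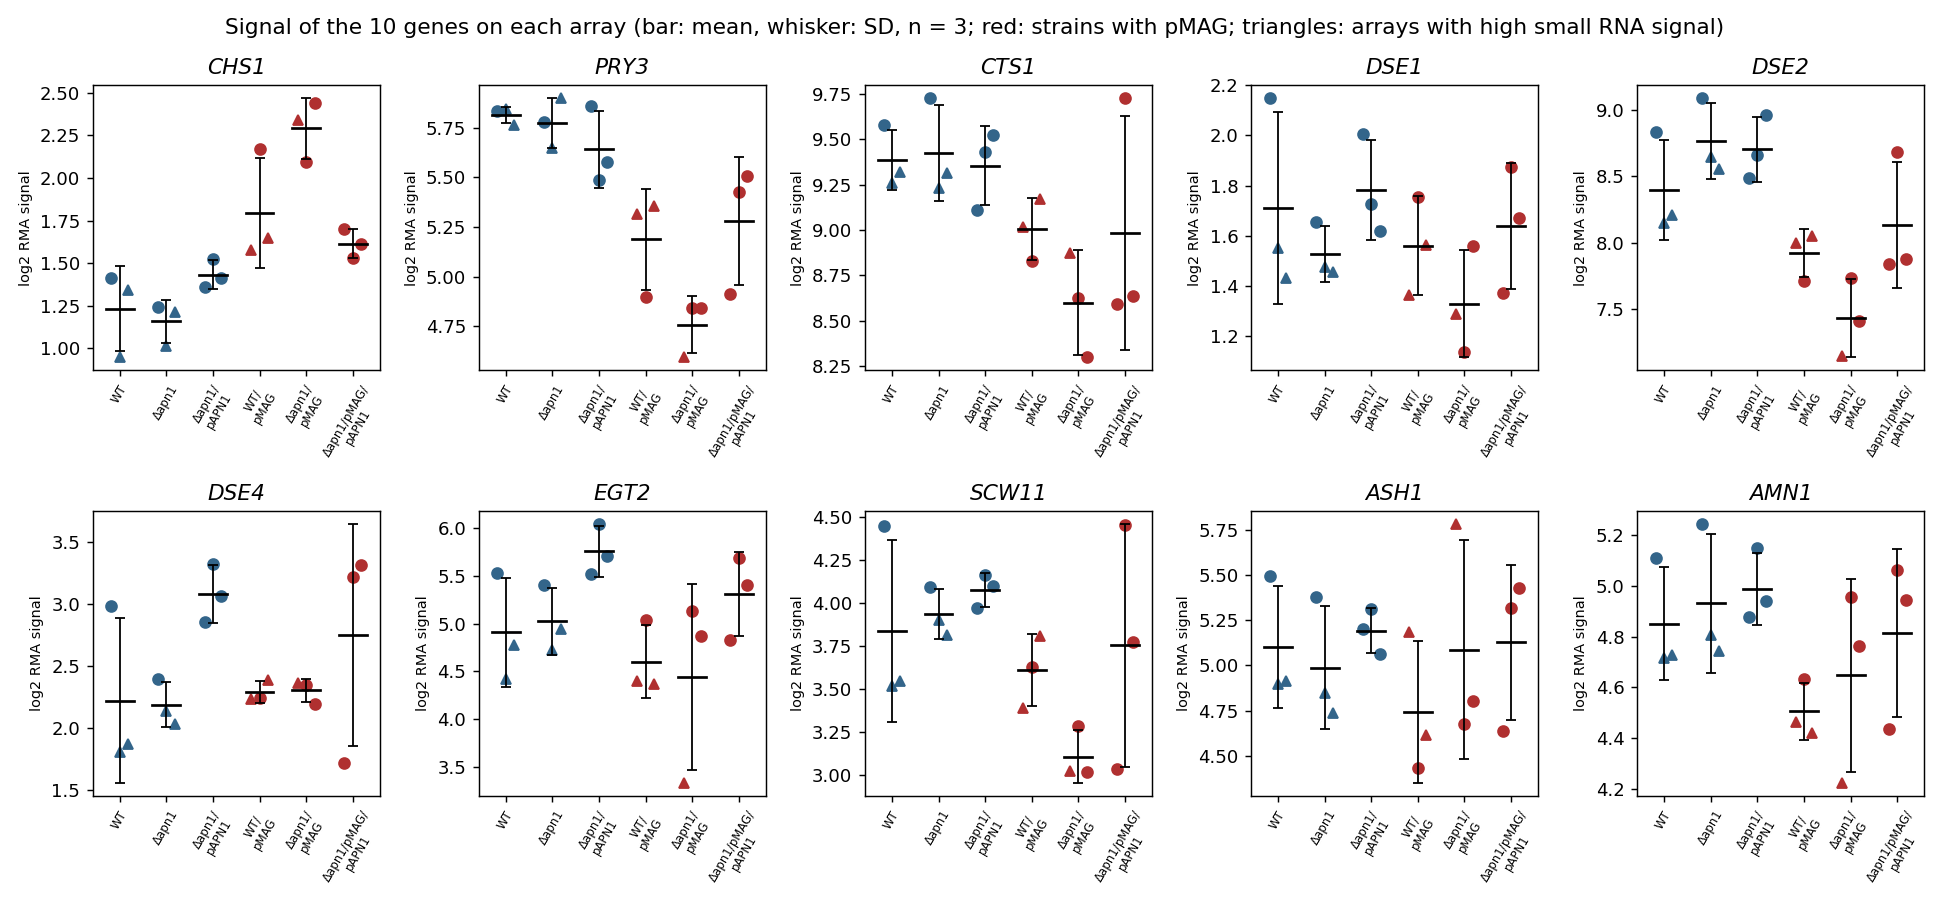
Log2 RMA signal (y axis, a separate scale for each gene) of the 10 genes on each of 18 arrays, by strain (x axis), with the mean (bar) and SD (whisker, n = 3); strains with pMAG are red, the others blue, and triangles mark arrays with high small RNA signal. CHS1 lay higher and PRY3, CTS1, DSE2 and SCW11 lower in Δapn1/pMAG than in wild type with no overlap. The means of DSE1, DSE4, EGT2, SCW11, ASH1 and AMN1 were highest in Δapn1/pAPN1.

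CHS1 (probe set 9067_at, YNL192W) encodes chitin synthase I, which repairs the wall of the daughter at separation, when chitinase acts on the septum. In wild type it read 1.41, 0.95 and 1.34, and in Δapn1 1.25, 1.02 and 1.22. In Δapn1/pAPN1 it read 1.36, 1.53 and 1.42. With pMAG the values were 1.58, 2.17 and 1.65 in WT/pMAG, 2.34, 2.09 and 2.44 in Δapn1/pMAG, and 1.70, 1.53 and 1.61 in Δapn1/pMAG/pAPN1. All 9 arrays with pMAG thus read above all 9 without it, though the gap between the nearest arrays, replicate 2 of both pAPN1 strains, was in the third decimal (1.530 and 1.527). Among all probe sets, 0.277% were higher without overlap in this way. These arrays include those that chose CHS1, so this share does not measure how rare its separation is. Over the 6 and 6 arrays of the 4 strains that did not choose the genes, CHS1 was again without overlap and the share was 0.815%. No gene of the 10 was lower without overlap in either set, against 0.0769% and 0.492%.

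From lowest to highest, the strain means of CHS1 stood in the order Δapn1, wild type, Δapn1/pAPN1, Δapn1/pMAG/pAPN1, WT/pMAG and Δapn1/pMAG, from 1.16 ± 0.13 to 2.29 ± 0.18 (SD, n = 3). Each pair of neighbours in this order overlapped apart from Δapn1/pAPN1 and Δapn1/pMAG/pAPN1, where the gap was the narrow one just given. The log2 difference from wild type was 1.06 (standard error 0.16) in Δapn1/pMAG, 0.56 in WT/pMAG and 0.38 in Δapn1/pMAG/pAPN1. It was 0.20 in Δapn1/pAPN1 and -0.08 in Δapn1. In the F test over the other 4 strains CHS1 was under an unadjusted 0.05, with a limma adjusted p of 0.298. When pMAG joined pAPN1 it differed by 0.18 (95% interval -0.17 to 0.53, limma adjusted p = 0.985). CHS1 is a dim probe set: its mean of 1.59 over the 18 arrays was under the median of 1.90 over all probe set means, and no background level was given to set it against.

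Genes with a mean above that median whose pattern over the 18 arrays was most like that of CHS1 were NCW1 (Pearson r = 0.870), DIA1 (0.854), ISU2 (0.831) and MNC1 (0.828). The correlation of CHS1 with PRY3 was -0.908. These coefficients describe 18 arrays that share strains, plasmids and the small RNA split, and hold the arrays that chose the genes.

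PRY3 (11079_at, YJL078C) encodes a wall-bound protein of the CAP superfamily found on daughter cells. It read 5.83, 5.84 and 5.77 in wild type, the tightest group of the gene, and 5.78, 5.65 and 5.90 in Δapn1. In Δapn1/pAPN1 it read 5.86, 5.49 and 5.58. With pMAG it read 5.32, 4.90 and 5.35 in WT/pMAG, 4.59, 4.84 and 4.84 in Δapn1/pMAG, and 4.91, 5.43 and 5.51 in Δapn1/pMAG/pAPN1. Every array with pMAG was below every wild type and Δapn1 array, and the only overlap among the 18 was between replicate 3 of Δapn1/pMAG/pAPN1 and replicate 2 of Δapn1/pAPN1 (5.51 and 5.49). The strain means ran from 5.81 ± 0.04 in wild type through 5.78, 5.64, 5.28 and 5.19 to 4.76 ± 0.14 in Δapn1/pMAG (SD, n = 3), with Δapn1, Δapn1/pAPN1, Δapn1/pMAG/pAPN1 and WT/pMAG between them in that order. Each pair of neighbours overlapped apart from WT/pMAG and Δapn1/pMAG.

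The difference of PRY3 from wild type was -1.06 (standard error 0.17) in Δapn1/pMAG, -0.62 in WT/pMAG, -0.53 in Δapn1/pMAG/pAPN1, -0.17 in Δapn1/pAPN1 and -0.04 in Δapn1. On the low side of the small RNA split alone, against the 1 wild type array there, the same differences were -0.99, -0.94, -0.55, -0.19 and -0.05. In the F test over the other 4 strains PRY3 had the same limma adjusted p of 0.298. When pMAG joined pAPN1 the difference was -0.36 (95% interval -0.72 to -0.0016, limma adjusted p = 0.897). Without replicate 1 of Δapn1/pMAG/pAPN1, the array with little APN1 signal, it was -0.17. The pattern of PRY3 was most like those of QDR2 (r = 0.845), DSE2 (0.806), FLO11 (0.795) and MBR1 (0.767) over the 18 arrays.

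The other members of its family in the annotation, PRY1 and PRY2, encode secreted CAP proteins. PRY2 differed by -1.12 (limma adjusted p = 0.442) in Δapn1/pMAG and by -0.80 in WT/pMAG from wild type, but by 0.30 in Δapn1/pMAG/pAPN1. PRY1 differed by -0.10 in Δapn1/pMAG, 0.48 in WT/pMAG and 0.27 in Δapn1/pMAG/pAPN1. Neither passed the adjusted threshold in any comparison.

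CTS1 (10045_at, YLR286C) encodes the endochitinase that breaks down the primary septum. It read 9.57, 9.26 and 9.32 in wild type, 9.72, 9.23 and 9.31 in Δapn1, and 9.11, 9.43 and 9.52 in Δapn1/pAPN1. In WT/pMAG it read 9.02, 8.83 and 9.17, and in Δapn1/pMAG 8.87, 8.62 and 8.30, both below every wild type array. In Δapn1/pMAG/pAPN1 replicates 1 and 3 read 8.59 and 8.64, while replicate 2, at 9.73, was the highest of all 18 arrays. The differences from wild type were -0.79 (standard error 0.26) in Δapn1/pMAG, -0.38 in WT/pMAG and -0.40 in Δapn1/pMAG/pAPN1, and 0.04 and -0.03 in Δapn1 and Δapn1/pAPN1. On the low side of the small RNA split the differences of the strains with pMAG were -1.11, -0.74 and -0.59. The tested difference of pMAG with pAPN1 was -0.37 (95% interval -0.92 to 0.18, limma adjusted p = 0.968). It was -0.74 without that replicate 2 and -0.17 without replicate 1. CTS1 was most like DSE2 (r = 0.862), SCW11 (0.827), ALD4 (0.818) and MBR1 (0.784) over the arrays.

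DSE2 (4392_at, YHR143W) encodes a secreted daughter protein, related to glucanases, that acts on the wall from the daughter side. It read 8.83, 8.15 and 8.21 in wild type, 9.09, 8.65 and 8.55 in Δapn1 and 8.49, 8.66 and 8.97 in Δapn1/pAPN1. With pMAG it read 8.0, 7.71 and 8.05 in WT/pMAG and 7.14, 7.73 and 7.40 in Δapn1/pMAG, below all arrays of their strains without the plasmid. In Δapn1/pMAG/pAPN1 it read 7.84, 8.68 and 7.88, so replicate 2 again stood among the arrays without pMAG. The difference from wild type was -0.97 (standard error 0.25) in Δapn1/pMAG, -0.48 in WT/pMAG and -0.26 in Δapn1/pMAG/pAPN1, and 0.37 and 0.31 in Δapn1 and Δapn1/pAPN1. Without replicate 1 of wild type the differences of the strains with pMAG were -0.75, -0.26 and -0.05, and on the low side of the small RNA split, where that array is the only wild type one, -1.26, -1.12 and -0.70. Set against its own background, Δapn1/pMAG differed from Δapn1 by -1.34.

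DSE2 had an adjusted p of 0.298 in limma's F test over the 4 strains, like CHS1 and PRY3. When pMAG joined pAPN1 it differed by -0.57 (95% interval -1.11 to -0.04, limma adjusted p = 0.896). It and PRY3 were the 2 genes of 10 under an unadjusted p of 0.05 there, both lower, against 3.17% of all probe sets lower and 2.38% higher. Without replicate 1 of Δapn1/pMAG/pAPN1 the DSE2 difference was -0.42, and neither gene was under 0.05; neither was under it without replicate 3 of Δapn1/pAPN1 either. Of the 18 fits with 1 array left out, 12 held 1 gene under 0.05 and 3 held 2 genes. Without replicate 2 of Δapn1/pMAG/pAPN1 the DSE2 difference was -0.84, and 4 genes were under 0.05.

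SCW11 (5034_at, YGL028C), which encodes a wall protein related to glucanases, read 4.45, 3.52 and 3.55 in wild type and 3.02, 3.29 and 3.01 in Δapn1/pMAG. The Δapn1/pMAG arrays lay below those of wild type and of Δapn1 (4.09, 3.90 and 3.81). In WT/pMAG it read 3.39, 3.63 and 3.81 and in Δapn1/pAPN1 3.97, 4.16 and 4.10. Δapn1/pMAG/pAPN1 spanned 3.04, 4.45 and 3.77, nearly the whole range of the gene. The differences from wild type were -0.73 (standard error 0.29) in Δapn1/pMAG and -0.23 in WT/pMAG. The first was -0.42 without replicate 1 of wild type, and -1.30 on the low side of the small RNA split, where that array is the only wild type one. When pMAG joined pAPN1 SCW11 differed by -0.32 (limma adjusted p = 0.985), and by 0.03 without replicate 1 of Δapn1/pMAG/pAPN1.

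**Figure D2:**
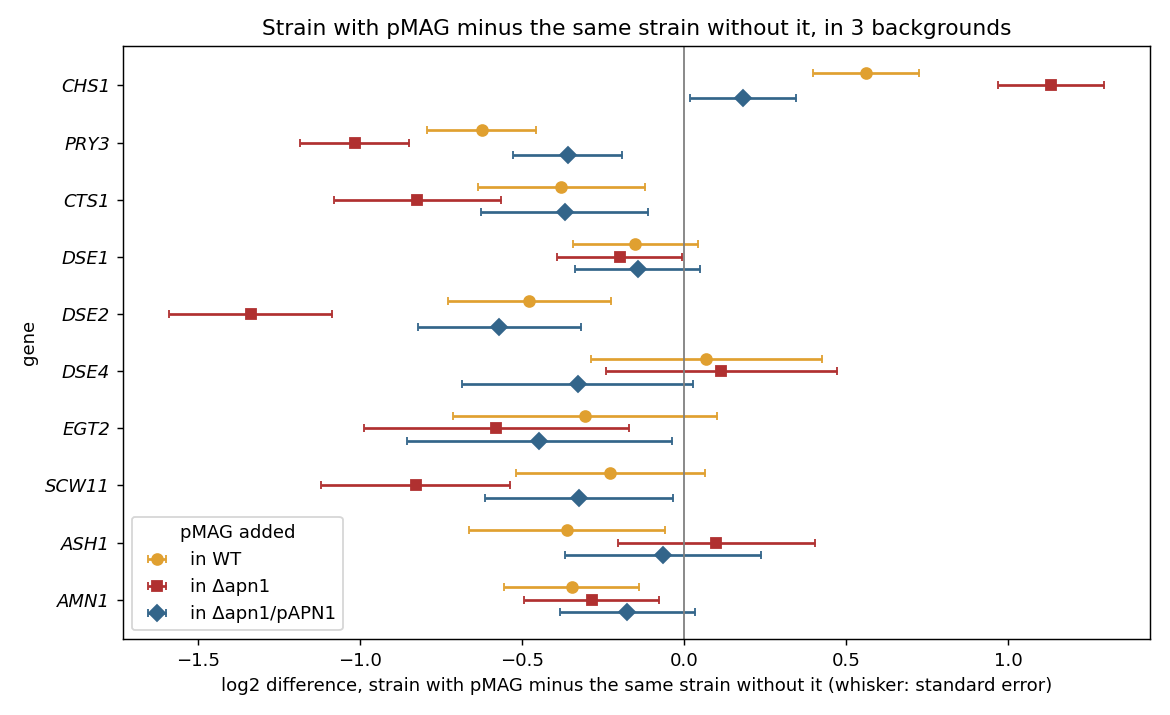
Log2 difference (x axis) between each strain with pMAG and the same strain without it, for the 10 genes (y axis), in wild type, Δapn1 and Δapn1/pAPN1; whiskers are standard errors of the limma fit. For PRY3, CTS1, DSE1, DSE2, EGT2, SCW11 and AMN1 all 3 points lie left of 0 and for CHS1 all 3 lie right of it, while only the Δapn1/pAPN1 points come from strains that did not choose the genes.

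Set side by side, the differences with pMAG in wild type, Δapn1 and Δapn1/pAPN1 were 0.56, 1.13 and 0.18 for CHS1, -0.62, -1.02 and -0.36 for PRY3, and -0.48, -1.34 and -0.57 for DSE2. For CTS1 they were -0.38, -0.82 and -0.37. The first 2 differences of each gene rest on the strains that chose it. The third uses none of their arrays, though its interval and p share their residual spread. With pAPN1 present, 9 of the 10 genes were lower with pMAG and 1 was higher, against 53.7% of all probe sets lower, and their median difference was -0.33, against -0.02 over all probe sets. Without replicate 1 of Δapn1/pMAG/pAPN1, SCW11, DSE4, ASH1 and AMN1 took the other sign. Only CHS1 had all 3 arrays outside the range of the Δapn1/pAPN1 arrays, higher, as did 6.84% of all probe sets; 7.24% were lower in this way. None of the 10 passed both an unadjusted 0.05 and 1.5-fold, against 1.23% higher and 1.2% lower. Whether the size of the difference depended on the background was tested with interaction terms over all probe sets. The interactions of the 10 genes rest in part on the arrays that chose them, so their values are not read as results.

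DSE4 and EGT2 had their highest strain means in Δapn1/pAPN1, as did DSE1, SCW11, ASH1 and AMN1. DSE4 (8779_at, YNR067C) encodes a secreted endo-1,3-beta-glucanase that dissolves the septum glucan. It read 2.98, 1.80 and 1.87 in wild type, 2.39, 2.14 and 2.03 in Δapn1 and 2.85, 3.32 and 3.06 in Δapn1/pAPN1. The values were 2.23, 2.24 and 2.39 in WT/pMAG and 2.37, 2.35 and 2.19 in Δapn1/pMAG, within the wild type range. In Δapn1/pMAG/pAPN1 it read 1.72, 3.22 and 3.32, and the low array was replicate 1, which also had little APN1 and LEU2 signal. LEU2 (probe set 6909_at), the marker of the pAPN1 plasmid, read 5.94 on it against 9.95 and 9.15 on the other arrays of that strain. On the arrays without pAPN1 this probe set read 4.05 to 6.73.

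EGT2 (9203_at, YNL327W) encodes a wall protein needed for clean separation of mother and daughter. It read 5.53, 4.42 and 4.78 in wild type, 5.41, 4.73 and 4.94 in Δapn1, and 5.52, 6.05 and 5.71 in Δapn1/pAPN1. In Δapn1/pMAG/pAPN1 it read 4.83, 5.69 and 5.41, and in WT/pMAG 4.40, 5.04 and 4.37. Δapn1/pMAG read 3.33, 5.13 and 4.87, of which the lowest was replicate 1, the array with the ACT1 gap. The Δapn1/pMAG difference from wild type of -0.46 (standard error 0.41) was 0.09 without it.

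Between Δapn1/pAPN1 and Δapn1, DSE4 differed by 0.89 (95% interval 0.13 to 1.65, limma adjusted p = 0.969) and EGT2 by 0.73 (-0.14 to 1.60, adjusted p = 0.969). DSE4, EGT2 and CHS1 had all 3 Δapn1/pAPN1 arrays above all 3 Δapn1 arrays, which makes 3 of 10 genes, against 10% of all probe sets, and 0 genes were below, against 4.29%. DSE4 alone passed an unadjusted p of 0.05 (3.49% of all probe sets higher, 1.46% lower), and it also passed 1.5-fold, against 1.17% higher and 0.431% lower. The median difference of the 10 genes was 0.17, and that of all probe sets 0.03. All 3 Δapn1/pAPN1 arrays lie on the low side of the small RNA split and 2 of the 3 Δapn1 arrays on the high side. With that split as a block the difference of EGT2 became 0.09 and that of DSE4 0.68, and no gene was under an unadjusted p of 0.05. On the low side alone, against 1 Δapn1 array, they were 0.35 and 0.69. Without replicate 2 or 3 of Δapn1, or replicate 2 of Δapn1/pAPN1, DSE4 was no longer under 0.05. CHS1 differed by 0.27 in this comparison, PRY3 by -0.13, CTS1 by -0.07 and DSE2 by -0.06.

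Against wild type, DSE4 was higher by 0.86 and EGT2 by 0.85 in Δapn1/pAPN1, the 2 genes past 1.5-fold there, against 3.77% of all probe sets higher and 2.97% lower. Against the wild type array of the low side alone these values were 0.10 and 0.23.

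The other genes varied less between strains. DSE1 (5609_at, YER124C), a daughter-specific gene whose product is involved in cell separation, is a dim probe set with a mean of 1.59. It read 2.15, 1.55 and 1.43 in wild type and 1.29, 1.14 and 1.56 in Δapn1/pMAG, which overlapped, and its strain means lay between 1.33 and 1.78. ASH1 (10778_at, YKL185W) encodes the repressor of HO whose messenger is carried into the bud, so that only the mother switches mating type in strains able to. Its strain means lay between 4.74 and 5.19, and every strain overlapped wild type. The highest array was replicate 1 of Δapn1/pMAG at 5.79, the array with the ACT1 gap. The others of that strain read 4.68 and 4.80, below the lowest wild type array at 4.90. The ASH1 difference of Δapn1/pMAG from wild type was -0.01 (standard error 0.30), and -0.36 without that replicate 1. AMN1 (7204_at, YBR158W) encodes a daughter protein that switches off the mitotic exit network. It read 4.46, 4.63 and 4.42 in WT/pMAG, below the wild type arrays at 5.11, 4.72 and 4.73, and its strain means lay between 4.51 and 4.99. In limma's F test over the 4 strains the smallest adjusted p of these 3 genes was 0.556, for AMN1.

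Counted against the wild type range, 4 genes of 10 had all 3 arrays below it in Δapn1/pMAG (PRY3, CTS1, DSE2 and SCW11) and 4 in WT/pMAG (PRY3, CTS1, DSE2 and AMN1), against 4.63% and 7.38% of all probe sets. CHS1 was above it in both, against 6.23% and 6.32%. In Δapn1/pMAG/pAPN1 PRY3 was below it and CHS1 above it, against 6.7% and 7.44%. No gene was outside it in Δapn1, against 3.2% lower and 2.98% higher, nor in Δapn1/pAPN1, against 5.35% and 12%. By size alone, PRY3, CTS1, DSE2 and SCW11 were over 1.5-fold lower and CHS1 higher in Δapn1/pMAG, against 3.37% and 3.6% of all probe sets. PRY3 alone was that much lower in WT/pMAG, against 5.27%, and 0 genes were higher, against 3.77%. No gene passed 1.5-fold in Δapn1 (0.738% lower and 0.83% higher over all probe sets) or in Δapn1/pMAG/pAPN1 (3.46% and 3.44%). The Δapn1/pMAG counts show only how the genes were chosen, and the other 4 comparisons share its wild type arrays. The median difference of the 10 genes from wild type was -0.42 in Δapn1/pMAG, -0.33 in WT/pMAG, -0.05 in Δapn1/pMAG/pAPN1, 0.17 in Δapn1/pAPN1 and 0.00 in Δapn1. Over all probe sets it was between 0.00 and 0.03.

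**Figure D3:**
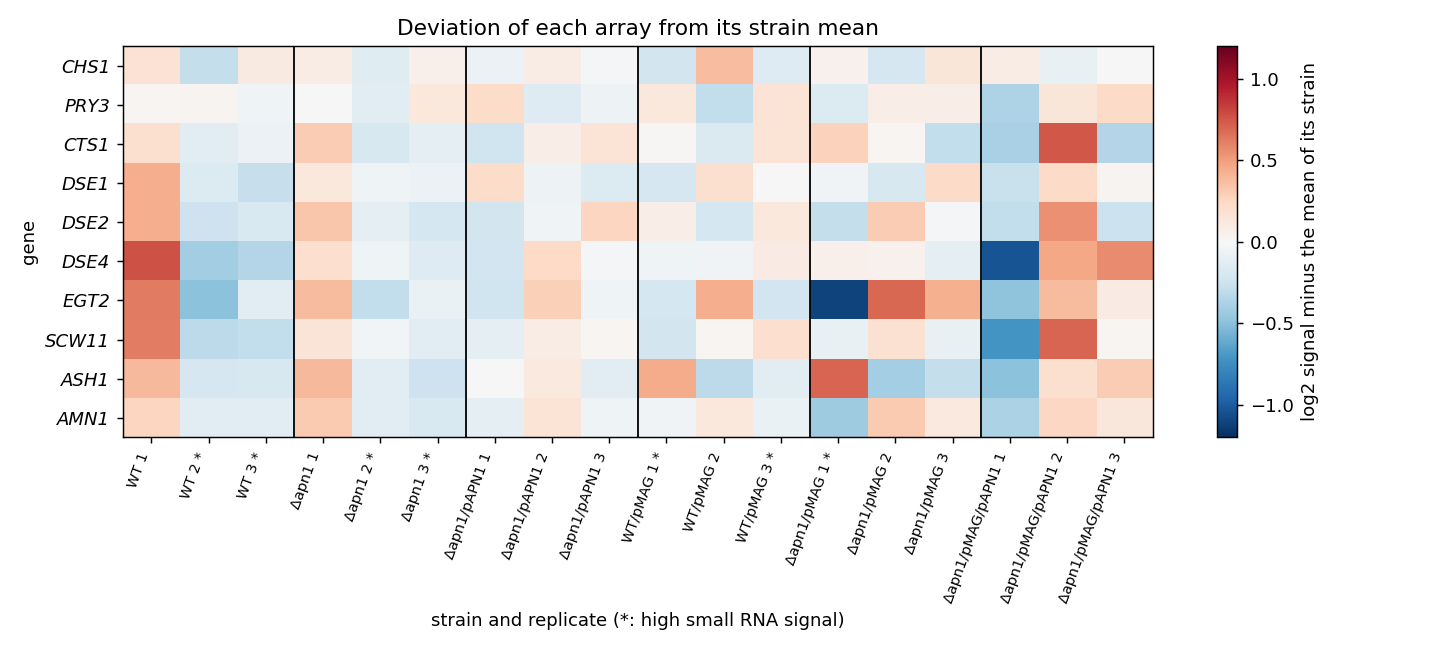
Deviation of each array (x axis, strain and replicate number; an asterisk marks high small RNA signal) from the mean of its strain in log2 units (colour), for the 10 genes (y axis). Replicate 1 of wild type and of Δapn1 is above its strain mean for nearly all genes, and replicate 1 of Δapn1/pMAG/pAPN1 is below it for nearly all.

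Within strains, most of the 10 genes deviated in 1 direction on certain arrays. Replicate 1 was the highest wild type array for 9 of 10 genes and the highest Δapn1 array for 9 of 10, where 44% and 46.8% of all probe sets were highest. These are the only arrays of their strains on the low side of the small RNA split. Genes of other cell cycle phases were high on them too: of 11 G2 and M phase genes 8 were highest on that wild type array and 10 on that Δapn1 array, and of 18 G1 and S phase genes 13 on each. In Δapn1/pMAG/pAPN1, replicate 1 was the lowest array for 9 of 10 genes, against 31.5% of all probe sets. Of the 18 G1 and S phase genes, 8 were highest on it and 9 on replicate 3, against 32.6% and 34.3% of all probe sets. On replicate 2 of that strain 16 of the 18 were lowest (38.2% of all probe sets), while 6 of the 10 genes were highest (33.1%). The part of cell cycle stage, of plasmid content or of the small RNA split in these patterns was not tested. Within WT/pMAG, the array with the least MAG1 signal (replicate 2, 1.48) had the highest CHS1 and the lowest PRY3 of the strain. In Δapn1/pMAG, replicates 1, 2 and 3, with MAG1 at 7.17, 2.88 and 1.82, read 2.34, 2.09 and 2.44 for CHS1. For PRY3 they read 4.59, 4.84 and 4.84, so there the array with the most MAG1 signal had the lowest PRY3.

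The wider pathway was counted in the same way, at an unadjusted p under 0.05 with 1.5-fold. Of 16 genes of chitin synthesis and remodelling, 0 passed these thresholds in either tested comparison. Over all probe sets, 1.23% passed higher and 1.2% lower when pMAG joined pAPN1. Between Δapn1/pAPN1 and Δapn1 the shares were 1.17% and 0.431%, so a count of 0 in a list this short does not set it apart. The list medians were 0.09 and 0.09 in these comparisons, against -0.02 and 0.03 over all probe sets. CHS7, which chitin synthase III needs to leave the endoplasmic reticulum, differed by -0.53 (limma adjusted p = 0.969) between Δapn1/pAPN1 and Δapn1, and BNI4, which ties that synthase to the bud neck, by 0.52. QRI1, whose product makes the sugar nucleotide from which chitin is built, differed by 0.40. In Δapn1/pMAG against wild type the list had 1 gene higher and 0 lower, against 2.03% and 1.35% of all probe sets, and its median was 0.10, against 0.02. In WT/pMAG it had 1 higher and 2 lower, against 2.14% and 3.86%. Of 9 other wall glucanases and SUN proteins, 0 passed in the tested comparisons, against the same shares of all probe sets. EXG1, the main exo-1,3-beta-glucanase, differed by 0.59 in Δapn1/pMAG, 0.62 in Δapn1/pMAG/pAPN1 and 0.27 in WT/pMAG from wild type, opposite in sign to CTS1, DSE2 and SCW11 (limma adjusted p between 0.506 and 0.755). NCA3, a SUN family gene, differed by 0.89 when pMAG joined pAPN1 (adjusted p = 0.915) and by -0.13 between Δapn1/pAPN1 and Δapn1.

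Of 13 septin and actomyosin ring genes, 1 was lower when pMAG joined pAPN1, against 1.2% of all probe sets: CDC11, a septin, at -0.75 (limma adjusted p = 0.563). MYO1, the myosin of the ring, differed by 0.04 there. Of 6 genes of ASH1 messenger transport 0 passed in the tested comparisons, against the shares given for the chitin list. HEK2, which represses translation of the ASH1 messenger on its way, differed by 0.57 (limma adjusted p = 0.969) between Δapn1/pAPN1 and Δapn1. SHE2, the RNA-binding adaptor of that transport, differed by -0.91 from wild type in WT/pMAG (adjusted p = 0.150) and by -0.18 in Δapn1/pMAG. Of 12 mitotic exit network genes and of 11 G2 and M phase genes 0 passed in the tested comparisons, against those same shares. CDC14, the phosphatase that ends mitosis, differed by 0.19 when pMAG joined pAPN1.

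Most G1 and S phase genes had positive differences in some of the same strains. Of its 18 genes, 17 had a positive difference from wild type in Δapn1/pMAG and 16 in Δapn1/pMAG/pAPN1, with medians of 0.38 and 0.43, against 54.1% and 55.6% of all probe sets. In WT/pMAG 11 were positive (51.3% of all probe sets), with a median of 0.07, while PRY3, CTS1 and DSE2 were all below the wild type range. In Δapn1/pAPN1 17 were positive (55.6% of all probe sets) with a median of 0.23, where no gene of the 10 was outside that range. RNR1, the large subunit of ribonucleotide reductase, differed by 1.65 in both Δapn1/pMAG and Δapn1/pMAG/pAPN1 (limma adjusted p = 0.605 and 0.565). None of the list passed the adjusted threshold, and its part in the values of the 10 genes was not tested. The a-cell markers had a median difference from wild type of -0.37 in Δapn1/pMAG, -0.54 in WT/pMAG and -0.32 in Δapn1, with all 6 below 0 in each, against 45.9%, 48.7% and 49.4% of all probe sets. The median was -0.34 in Δapn1/pMAG/pAPN1 and -0.11 in Δapn1/pAPN1, with 5 of 6 below 0 in both, against 44.4% of all probe sets in both. Of 4 alpha-cell markers, 3 were above 0 in Δapn1/pMAG, 4 in WT/pMAG and 3 in Δapn1, against 54.1%, 51.3% and 50.6% of all probe sets. Their medians were 0.10, 0.28 and 0.11. In Δapn1/pMAG/pAPN1 3 were above 0 and in Δapn1/pAPN1 2, with medians of 0.04 and -0.01, against 55.6% of all probe sets in both.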

How the data were processed

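The deposited values are log2 signals that the authors made from Affymetrix Yeast Genome S98 scans with RMA (background correction, quantile normalization and probe summary; version not given in the sources used here). Quantile normalization made the probe intensities alike in distribution before the probe summary, and low signals are compressed. The summarized values still differed between arrays, with medians from 1.63 to 1.72. Of 9335 probe sets, 60 controls, 328 with several gene names and 2443 without a name in the platform annotation were left out; 6504 probe sets of 5656 genes remained, with no filter on signal.

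One mean per strain was fitted to all 18 arrays with limma 3.58.1 in R 4.3.3 (lmFit, eBayes; 12 residual and 2.89 prior degrees of freedom), and p-values were adjusted by Benjamini-Hochberg over the 6504 probe sets; the threshold was 0.05. Array number limits the precision, and the median residual SD was 0.24. The methods' thresholds (p under 0.05 and 1.5-fold) gave the other counts. The fit was also run on simulated data with independent normal noise and no small RNA split or paired arrays. That run does not show whether the p-values hold for these arrays. The 10 genes and all gene lists were chosen with earlier results of these data known. Named are all 10 genes, up to 3 genes per list with the smallest p in the 2 tested comparisons, the 4 closest patterns of CHS1, PRY3 and CTS1, and the plasmid and strain genes. Replicate numbers, which the labels do not tie to a shared day or culture, were checked as pairs in all 15 pairs of strains. Same-numbered arrays of wild type and Δapn1 deviated together (correlations of 0.33 to 0.37) and were taken as pairs. In both strains only replicate 1 lies on the low side of the small RNA split, so pairing cannot be told apart from that split. In each other pair of strains at least 1 correlation was under 0.1. Alternatives covered weights, blocks, normalization, filters, the same tests without moderation of the spread, and each array left out. The unmoderated fit was not the paper's own calling, which compared each strain with wild type by ANOVA at p under 0.05 and 1.5-fold. Per the labels, groups follow the source names, also where the descriptions of 2 Δapn1 arrays name another gene. Results for some genes and lists are not reported here.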

Additional observations from a re-analysis of the deposited data

How the results depend on the processing

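None of the 10 genes passed an adjusted p of 0.05 in the 3 tests under any alternative run. In the difference of pMAG with pAPN1, PRY3, DSE2, CTS1, EGT2, DSE1 and CHS1 kept their sign in all 32 settings (PRY3 -0.47 to -0.17, DSE2 -0.84 to -0.42). Many of these settings cannot move that difference, since they leave out arrays of other strains or change only the error term. The small RNA block and subset returned the main values, because all arrays of both strains lie on the low side.

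The F test called 20 probe sets. It called 49 with array weights, 8 on the low side of the small RNA split, 10 with only the compared arrays, 12 with the split as a block, 1 by the methods' test and 13 with a trended robust prior. It held 5 of the 10 genes at an unadjusted p under 0.05 with weights and 6 without replicate 1 of Δapn1/pMAG and of Δapn1/pMAG/pAPN1, when limma's adjusted p was 0.164 for DSE4 and 0.237 for EGT2. With 1 array left out it called 3 to 37 probe sets (without replicate 1 of Δapn1 and replicate 2 of Δapn1/pMAG/pAPN1) and held 3 to 4 genes.

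For pMAG with pAPN1, 0 probe sets passed; 9 did with weights, 1 on the low side and 0 to 5 with 1 array left out. The 2 genes under an unadjusted 0.05 were 1 with the split as a block, without moderation, with the trended prior and without the dimmest probe sets. They were 0 on the low side, with only the compared arrays, after a second quantile normalization and without both doubted arrays, and 0 to 4 with 1 array left out. Without replicate 1 of Δapn1/pMAG/pAPN1, and without both doubted arrays, AMN1 was 0.014, ASH1 0.18, DSE4 0.19 and SCW11 0.034. The lowest values with 1 array left out were -0.30, -0.22, -0.61 and -0.67.

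For pAPN1 in the null, 1 probe set passed. With weights 6 did, with only the compared arrays 4, with the split as a block 2 and without moderation 0. Without both doubted arrays 5 did, and 1 to 5 with 1 array left out. The 1 gene under 0.05 became 3 with weights, 2 with a block for replicate 1 of Δapn1/pMAG (the largest gap in small RNA signal), with only the compared arrays and without both doubted arrays, 0 on the low side and with the split as a block, and 0 to 2 with 1 array left out. Signs turned for AMN1 (-0.26 on the low side, -0.22 with the block, -0.036 to 0.21 with 1 array left out), ASH1 (-0.18 on the low side), SCW11 (-0.015 and -0.076 there and with the block), CTS1 (0.042 with weights, -0.16 to 0.082 with 1 array left out) and DSE2 (0.038 and -0.19 to 0.10 likewise), both positive without replicate 1 of Δapn1 or of Δapn1/pAPN1. The causes were not tested.

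Against wild type, the count past 1.5-fold on the low side, with 1 wild type array, was 7 lower in Δapn1/pMAG (4 otherwise), 6 lower and 1 higher in WT/pMAG (1 and 0), 3 lower in Δapn1/pMAG/pAPN1 (0), 1 lower in Δapn1 (0) and 0 higher in Δapn1/pAPN1 (2, and 1 with the block). WT/pMAG had 1 higher with weights and 0 lower after a second quantile normalization, and Δapn1/pMAG/pAPN1 had 2 higher without both doubted arrays. With 1 array left out the lower counts were 3 to 5 in Δapn1/pMAG, 0 to 2 in WT/pMAG, 0 to 2 in Δapn1/pMAG/pAPN1 and 0 in the others; the higher counts were 1, 0 to 1, 0 to 2, 0 to 1 in Δapn1 and 2 in Δapn1/pAPN1.

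In the 2 tested comparisons same-numbered arrays deviated together with correlations of -0.16 to 0.07, so their numbers were not taken as pairs. With the replicate number as a block the F test called 11 probe sets, and 0 of the 10 genes were under an unadjusted 0.05 for pMAG with pAPN1. For wild type and Δapn1, which were taken as pairs, the block over their 6 arrays left 0 probe sets past the adjusted threshold. At an unadjusted p under 0.05 there were 310, against 112 without the block. In this fit 0 of the 10 genes were past 1.5-fold, as without the block. The small RNA split, as block or subset, and this last fit were chosen after seeing the data.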
